A study of Mus musculus with 8 samples.

Results

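Interferon-stimulated antiviral genes were followed in fibroblasts that had lost Mettl3, the enzyme that writes N6-methyladenosine (m6A) on mRNA. The set holds 39 genes induced by type I interferon whose products act against viruses or carry the interferon signal, with the RNA sensors left out. It was matched by gene symbol to 39 of the 39017 gene identifiers in the count table, and all 39 were among the 18952 genes that passed the expression filter. The set was put together with the levels of these genes already known, so its values are given gene by gene as a description, with attention to which differences held in both knockout libraries of total RNA.

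Poly(A) RNA was sequenced from mouse embryonic fibroblasts (MEFs) taken at E13.5, mid-gestation. In the knockout cells 4-hydroxytamoxifen (500 nM, 48 h) activated a Cre recombinase, and absence of Mettl3 protein and m6A was checked 7 days later. Control and knockout cells were each sampled as total RNA without stress and as a stress granule-enriched fraction, pelleted by centrifugation after 500 µM sodium arsenite for 30 min, with 2 biological replicates in each of the 4 groups. Arsenite is an oxidative stress that stalls translation and gathers mRNAs in cytoplasmic granules. The labels name neither the Cre driver nor the alleles, and do not say whether control cells received 4-hydroxytamoxifen. Fraction and stress changed together, and a ratio between the 2 kinds of library reflects both.

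Type I interferons bind a receptor made of Ifnar1 and Ifnar2, whose kinases Jak1 and Tyk2 phosphorylate Stat2. Stat2 and Irf9 act in a complex that enters the nucleus and binds interferon-stimulated response elements in promoters. The genes switched on there encode proteins that bind or degrade viral RNA, block viral entry, assembly and release, or feed back on the signal, and fibroblasts are a classical cell type for this response.

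The response element was looked for as GAAA, any 2 bases and GAAA again, on either strand (TTTC, any 2 bases and TTTC on the other), in RefSeq promoter windows of the GRCm38.p6 build, which run from 250 bases before to 50 after a transcription start. Of the 31 members with a window, 16 held a match (51.6%), against 3.99% of all 27025 genes with one. By window, 17 of 36 belonging to members matched, against 3.44% of all 32851. The interferon-gamma type element TTCNNNGAA, which reads the same on both strands, matched in 5 of the 31 members (16.1%), against 9.55% of all genes with a window. Of its 6 matches, 1 overlapped a response element match, in Bst2. No window was at hand for Ifi27l2a, Parp14, Parp9, Oas2, Ifi204, Usp18, Mx1 and Rtp4. A match is a run of letters and was not tested as a binding site. The stretches of 60 bases below are given 5′ to 3′ on the gene's strand with the matched letters in capitals. They show Isg15, Irgm1 and the Ifit genes, whose level was higher in both knockout total libraries, beside Oas1a and Bst2, whose level was not.
Isg15 (chr4:156200856-156200915, minus strand): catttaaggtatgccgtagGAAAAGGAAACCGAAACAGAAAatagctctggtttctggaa
Irgm1 (chr11:48871413-48871472, minus strand): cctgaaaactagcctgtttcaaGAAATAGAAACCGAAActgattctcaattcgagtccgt
Ifit1 (chr19:34640770-34640829, plus strand): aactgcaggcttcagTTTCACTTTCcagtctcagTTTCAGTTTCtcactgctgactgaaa
Ifit3 (chr19:34583365-34583424, plus strand): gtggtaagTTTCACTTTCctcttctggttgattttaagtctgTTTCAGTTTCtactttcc
Ifit3b (chr19:34607761-34607820, plus strand): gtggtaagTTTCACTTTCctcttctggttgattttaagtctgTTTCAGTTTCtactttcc
Oas1a (chr5:120907508-120907567, minus strand): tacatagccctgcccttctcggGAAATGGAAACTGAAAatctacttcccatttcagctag
Bst2 (chr8:71537565-71537624, minus strand): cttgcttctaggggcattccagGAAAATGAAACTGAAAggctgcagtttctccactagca
The stretches of Ifit3 and Ifit3b are identical, and those of Oas1a and Bst2 carry overlapping matches, as do those of Isg15 and Irgm1. A promoter match was thus present both in members whose difference held in both knockout total libraries and in members whose difference did not.

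Total counts ranged from 67257220 to 123508539 per library. Levels are CPM (counts relative to library size), scaled by the trimmed mean of M-values (TMM), and 3 counts correspond to between 0.0264 and 0.0441 CPM. Mettl3 stood at 25.4 and 24.9 CPM in control total RNA and at 6.005 and 7.35 CPM in knockout total RNA, and at 15.7 and 15.4 against 5.56 and 6.38 CPM in the granule fraction, lower in every knockout library. Mitochondrial transcripts took 7.60% of the counts of knockout total replicate 1, and 6.16% and 8.81% in the knockout granule libraries. In the other 5 libraries, with knockout total replicate 2 among them, they took 0.590% to 0.881%. Fibroblast markers were present throughout, with Col1a1 between 1226 and 3966 CPM and Vim between 999 and 3437 CPM. Between genotypes, 0 of the 8 fibroblast markers were called in total RNA (edgeR). Of the same 8, 3 rose in the knockout granule fraction and 1 fell, with a median log2 fold change of 1.01 over the 8 (Col1a1 from 1551 and 1249 to 3966 and 3382 CPM, Vim from 3196 and 3437 to 1269 and 1354 CPM). The 9 leukocyte markers summed to 67.8 and 88.3 CPM in control total and 66.7 and 50.5 CPM in knockout total RNA, and to between 41.8 and 66.1 CPM in the granule libraries. None of the 9 was at 0 in any library, and Ptprc, the pan-leukocyte surface phosphatase, was highest at 24.4 to 41.8 CPM in total RNA. The 4 endothelial markers summed to at most 20.1 CPM. The 4 epithelial markers, nearly all Krt18, summed to 336 and 204 CPM in control total and to 49.2 and 89.5 CPM in knockout total RNA. In the granule fraction the 4 summed to 677 and 713 CPM in control and to 527 and 664 CPM in knockout cells. Their median log2 fold change between genotypes was -1.62 in total RNA and 0.34 in the granule fraction, with 0 called in either. The part of any such cells in the results was not tested, and in bulk RNA a change in the number of cells of a type and a change in RNA per cell cannot be told apart.

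The 39 genes together took 0.362% and 0.479% of the counts of control total RNA and 1.58% and 1.42% of those of knockout total RNA. In the granule fraction the shares were 0.0621% and 0.0599% in control and 0.580% and 0.551% in knockout cells. The summed level in knockout cells was thus above that in control cells in both replicates of both fractions. Per kilobase of annotated exon, the most abundant members in control total RNA were Bst2 at 741 ± 28.7 CPM per kb and Isg15 at 452 ± 80.6 CPM per kb (SD, n = 2), and the level of Isg15 was below that of Bst2 in both libraries.

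In unstressed total RNA, both knockout libraries lay above both control libraries for 34 of the 39 genes (87.2%). This held for 24.4% of all tested genes, and since the set was chosen on this contrast, nothing is read from the difference. The 5 exceptions were Usp18, Oas1a, Bst2, Ifi27l2a and Ifi35, each of which exceeded both controls in knockout replicate 2 alone. With a gap of at least 2-fold between the lower knockout and the higher control library, 28 members remained (2.61% of all genes), and Irf9, Isg15, Herc6, Trim25, Oasl1 and Sp100 also dropped out. Relative to the control mean, knockout replicate 1 ranged from 0.279-fold for Ifi35 to 27.8-fold for Ifi204, with a median of 5.06-fold. Knockout replicate 2 covered a narrower range, from 1.45-fold for Irf9 to 6.72-fold for Gbp3, with a median of 3.30-fold.

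**Figure D1:**
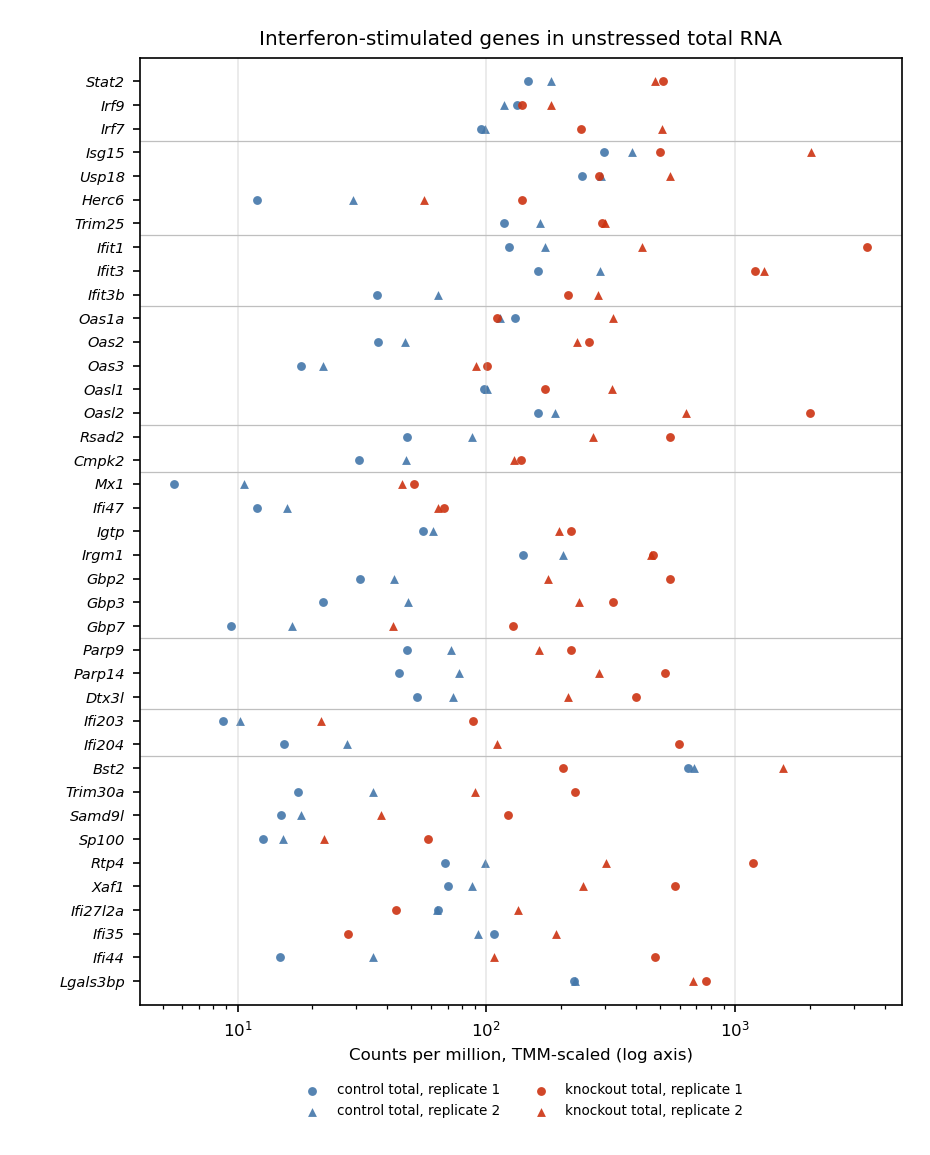
Level of each of the 39 genes in the 4 total RNA libraries, in TMM-scaled CPM on a log axis, with circles for replicate 1 and triangles for replicate 2; control is blue, knockout red, and lines separate the role groups. Both red points lie to the right of both blue points for 34 genes, and the red points are farthest apart for Ifit1, Bst2 and Ifi35.

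In the edgeR quasi-likelihood model over all genes, 11 members were called higher at an adjusted p under 0.05 and 0 lower, while 0.274% of all tested genes were called higher and 0.137% lower. The 11 were Stat2, Ifit3, Ifit3b, Oas2, Oas3, Mx1, Ifi47, Igtp, Gbp3, Parp14 and Lgals3bp. All 39 fitted log2 fold changes were positive, from 0.13 for Ifi35 to 4.04 for Ifi204. Their median was 2.26, and the median of all genes was 0.02. Member medians of log2 CPM ratios in the 4 pairings of a knockout with a control library ran from 1.54 to 2.56 (SD 0.417). The pairings reuse the same 4 libraries and are not independent. The number called rested on single libraries. It was 36 without knockout total replicate 1, where 2.95% of all genes were called higher. Without knockout total replicate 2 it was 33 with 2 called lower, Bst2 and Ifi35, and 27.0% of all genes were called higher and 20.9% lower. It was 0, as for all genes, without any 1 of the 4 granule or 2 control total libraries, with 31 to 33 members at an unadjusted p under 0.05 in those 6 fits. It was 33 with DESeq2, which called 9.72% of all genes higher, and 0, as for all genes, when only the 4 total libraries were fitted (33 members at an unadjusted p under 0.05).

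The signal transducers came first in the pathway. Stat2, a transcription factor activated at the interferon receptor, stood at 148 and 181 CPM in control total RNA (replicates 1 and 2) and at 515 and 477 CPM in knockout total RNA. In the granule fraction Stat2 stood at 21.2 and 20.2 CPM in control and at 119 CPM in both knockout libraries. The groups did not overlap in either fraction, and the knockout replicates differed little. Irf7, the factor that amplifies interferon production, stood at 95.3 and 99.0 CPM in control and 239.7 and 511 CPM in knockout total RNA. Its granule level was 8.87 and 8.19 CPM in control and 212 and 209.6 CPM in knockout cells. Irf7 was thus higher in every knockout library, with the total replicates 1.09 apart on the log2 scale. Irf9, the DNA-binding part of the complex, had the least separated total RNA levels of the 34, with 139 and 182 CPM in knockout against 133 and 118 CPM in control cells. Of these 3 genes, 1 was called higher in total RNA and all 3 in the granule fraction, where 5.79% of all tested genes were called higher.

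Isg15, a ubiquitin-like protein attached to other proteins in infected cells, stood at 298 and 385 CPM in control total RNA and at 498 and 2016 CPM in knockout total RNA. Its granule level was 33.3 and 31.3 CPM in control and 453 and 459 CPM in knockout cells. The knockout libraries lay above the controls in both fractions, but the total replicates were 2.02 apart on the log2 scale. Usp18, which removes Isg15 and dampens receptor signalling, stood at 244 and 291 CPM in control total RNA and at 283 and 550.3 CPM in knockout total RNA. Knockout replicate 1 of Usp18 fell between the controls. In the granule fraction Usp18 did separate, with 9.11 and 9.03 CPM in control and 109 and 94.7 CPM in knockout cells. Trim25 and Herc6, ligases of the same branch, were above the controls in both knockout total libraries, with the lower knockout library 1.77-fold and 1.92-fold above the higher control. None of these 4 genes was called in total RNA (all 4 log2 fold changes were positive, from 0.64 to 2.25), and 3 rose in the granule fraction, without Herc6 (log2 fold change 0.87, SE 0.52, adjusted p = 0.313, edgeR). Herc6 shares 23.8% of its 50-base words with Gm45193, an overlapping gene on the same strand, and its level is uncertain to that extent.

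The Ifit proteins bind viral RNA that lacks host-type caps and hold it from translation. Ifit1 had the widest split of any member between the knockout total libraries, 3411 CPM in replicate 1 and 424 CPM in replicate 2, against 123.97 and 172 CPM in the controls. Its granule level was 75.1 and 79.6 CPM in control and 385 and 441 CPM in knockout cells. Both knockout libraries of Ifit1 exceeded both controls in each fraction, but its log2 fold change was called in neither. Ifit3 stood at 161 and 285 CPM in control and 1206 and 1309.6 CPM in knockout total RNA, and at 34.8 and 33.7 against 413 and 392 CPM in the granule fraction. Ifit3b stood at 36.3 and 63.9 CPM in control and 213 and 282 CPM in knockout total RNA, and at 7.30 and 7.51 against 95.1 and 82.3 CPM in the granule fraction. Both genes were called higher in each fraction, with granule log2 fold changes of 3.56 (SE 0.34) and 3.58 (SE 0.36). They lie 19.2 kb apart on chromosome 19, and 51.2% of the 50-base words of Ifit3 also occur in Ifit3b, so how the reads were shared between them is uncertain.

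The oligoadenylate synthetases make the messenger that activates RNase L. Oas1a stood at 131 and 114 CPM in control total RNA and at 110.4 and 324 CPM in knockout total RNA, so replicate 1 lay below both controls and replicate 2 above them. In the granule fraction it stood at 4.97 and 3.89 CPM in control and 77.5 and 87.4 CPM in knockout cells. Of its 50-base words, 57.6% are shared with the neighbouring copy Oas1g, and its level is uncertain to that extent. Oasl2 stood at 161 and 188 CPM in control and 1995 and 635 CPM in knockout total RNA, and at 24.2 and 23.1 against 263 and 241 CPM in the granule fraction. The knockout libraries of Oasl2 were higher throughout. Oas2 and Oas3 had knockout total replicates that differed by 0.17 and 0.16 on the log2 scale, with lower knockout levels at least 4-fold over the higher control (4.92 and 4.11). Of the 5 genes, 2 were called higher in total RNA (Oas2, Oas3) and 5 in the granule fraction.

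Rsad2 (viperin) makes a chain-terminating nucleotide and Cmpk2 supplies its substrate, and the genes lie 12.8 kb apart on opposite strands of chromosome 12. Rsad2 stood at 48.2 and 87.9 CPM in control and 547 and 269 CPM in knockout total RNA, and at 10.7 and 10.6 against 83.8 and 106 CPM in the granule fraction. Cmpk2 was 3.52-fold and 3.30-fold over the control mean in the knockout total libraries. Neither gene was called in total RNA and both rose in the granule fraction.

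The interferon-induced GTPases attack viral capsids and the vacuoles of intracellular microbes. For all 7, Mx1, Ifi47, Igtp, Irgm1, Gbp2, Gbp3 and Gbp7, both knockout total libraries exceeded both controls by at least 2-fold. Irgm1 stood at 141 and 204 CPM in control and 469.9 and 461 CPM in knockout total RNA, and at 69.1 and 68.7 against 268 and 231 CPM in the granule fraction. Gbp2 stood at 30.9 and 42.6 CPM in control and 549.8 and 178 CPM in knockout total RNA, and at 7.29 and 5.81 against 23.0 and 19.9 CPM in the granule fraction. The knockout total replicates of Irgm1 thus nearly coincided and those of Gbp2 were 1.63 apart on the log2 scale. In total RNA 4 of the 7 were called higher (Mx1, Ifi47, Igtp and Gbp3) and in the granule fraction 6, all but Gbp2 (log2 fold change 1.71, SE 0.50, adjusted p = 0.0688, edgeR).

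Parp9, Parp14 and Dtx3l act in ADP-ribosylation, and Dtx3l is the ubiquitin ligase that works with Parp9. Parp14 stood at 44.6 and 77.6 CPM in control and 521 and 283 CPM in knockout total RNA, and at 12.6 and 11.1 against 75.8 and 72.3 CPM in the granule fraction. Dtx3l stood at 52.5 and 73.6 CPM in control and 402 and 214 CPM in knockout total RNA, and at 16.3 and 15.3 against 110.3 and 130.0 CPM in the granule fraction. Both genes were at least 2.90-fold above the higher control in each knockout total library. The 3 genes were called higher in the granule fraction, and Parp14 alone of them in total RNA. The gene spans of Parp9 and Dtx3l overlap by 682 bases on opposite strands, introns included. Exon overlap took 9.40% of the exon length of Parp9 and 8% of that of Dtx3l. Since the strand setting is not given in the sources used here, reads from the shared exon stretch cannot be assigned to either.

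The PYHIN proteins Ifi203 and Ifi204 belong to a family of nucleic acid-binding proteins. Ifi204 stood at 15.4 and 27.5 CPM in control and 597 and 110.2 CPM in knockout total RNA, and at 11.5 and 10.6 against 52.7 and 47.7 CPM in the granule fraction. Its groups did not overlap in either fraction, but it was called in neither, with a log2 fold change of 4.04 (SE 0.74) in total RNA and 2.18 (SE 0.69, adjusted p = 0.0857, edgeR) in the granule fraction. Its sequence shares 30.2% of its 50-base words with other genes, mostly Ifi211. Ifi203 was 9.30-fold and 2.29-fold over the control mean in the knockout total libraries, and it rose in the granule fraction (log2 fold change 2.41, SE 0.59, adjusted p = 0.0425, edgeR).

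Among the other antiviral proteins, 3 had knockout total libraries on opposite sides of both controls. Bst2 (tetherin), which holds budding virions at the cell surface, stood at 651 and 687 CPM in control total RNA and at 204 and 1565 CPM in knockout total RNA. Ifi35 stood at 107 and 92.3 CPM in control and 27.9 and 191 CPM in knockout total RNA. Ifi27l2a, a small hydrophobic interferon-induced protein, stood at 64.1 and 63.4 CPM in control and 43.4 and 134 CPM in knockout total RNA. For each of the 3, replicate 1 was the lowest and replicate 2 the highest of the 4 libraries. Without replicate 2 the fitted log2 fold change turned to -1.60 for Bst2, -1.73 for Ifi35 and -0.45 for Ifi27l2a, and for Oas1a it turned to -0.04. That fit keeps 1 knockout total library and has no measure of the spread between knockout replicates of total RNA. In the granule fraction the same genes separated by genotype. Bst2 stood at 53.4 and 49.9 CPM in control and 974 and 954 CPM in knockout cells. Ifi27l2a stood at 5.16 and 5.68 against 274 and 243 CPM, the largest ratio of any member (47.6-fold). Ifi35 stood at 19.0 and 21.3 against 71.1 and 74.1 CPM and was not called (log2 fold change 1.85, SE 0.71, adjusted p = 0.140, edgeR). Among the remaining 7, Lgals3bp was called higher in total RNA, where its knockout replicates were 3.38-fold and 3.01-fold over the control mean. Trim30a, Samd9l, Sp100, Rtp4, Xaf1 and Ifi44 were above both controls in both replicates, each more so in replicate 1.

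The difference between the knockout total replicates varied with the base composition and length of the transcripts. Across the 39 genes, Spearman's rho between the log2 ratio of knockout total replicate 1 to 2 and the GC content of the longest coding transcript was -0.74, and over the 10212 genes whose mean reached 5 CPM it was -0.73. The genes of either set share the same pair of libraries, and the values are a description. In the 5 genes that held in replicate 2 alone, GC content ranged from 50.9% to 55.3% (median 52.9%), and in the other 34 from 38.4% to 56.3% (median 47.0%). Their transcripts were also shorter, 463 to 1885 bases with a median of 1362, against a median of 2934.5 bases in the 34. Over the 39 members transcript length had a rho of 0.52 with the log2 ratio of replicate 1 to 2, and length and GC content were themselves correlated over the members (rho -0.42). Over the members the control total replicates showed a rho of 0.66 with GC content, with a median absolute log2 ratio of 0.40 against 1.02 in knockout total RNA. In the granule libraries rho was 0.02 in control and 0.24 in knockout cells, with median absolute log2 ratios of 0.10 and 0.12. After the GC trend of each library had been removed, 31 members were called higher in total RNA (2.69% of all genes) and all 39 fitted log2 fold changes remained above 0.

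**Figure D2:**
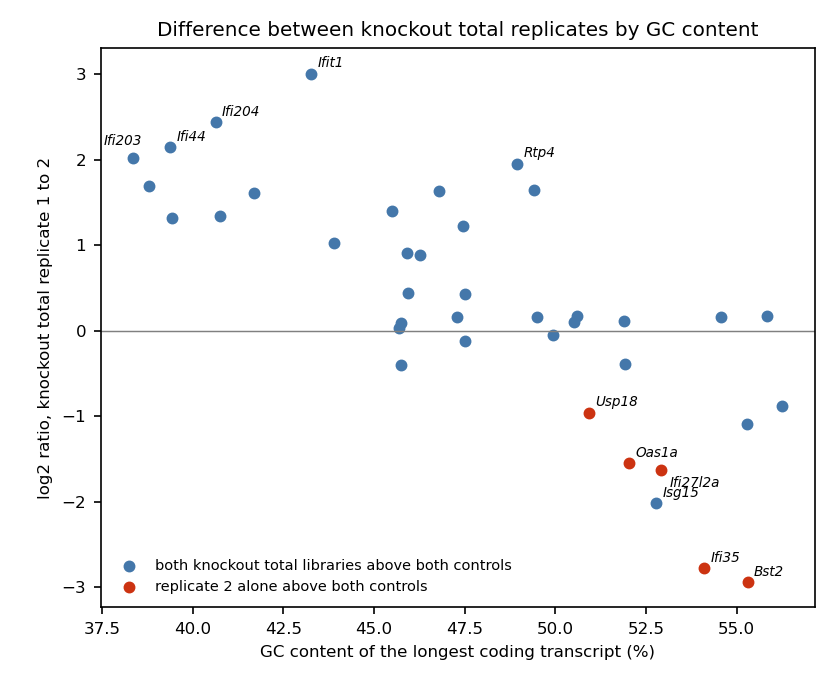
Log2 ratio of knockout total replicate 1 to replicate 2 against the GC content of the longest coding transcript, 1 point per gene; red points are the 5 genes above both controls in replicate 2 alone. The ratio falls from 3.01 for Ifit1 to -2.94 for Bst2, with low-GC genes at the top and the red points at or above 50.9% GC.

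In the granule fraction of arsenite-treated cells, both knockout libraries lay above both control libraries for all 39 genes (40.4% of all tested genes), and for 37 with a gap of at least 2-fold (12.4% of all genes), without Herc6 and Sp100. Of the 39, 33 rose, against 5.79% of all tested genes called higher. The 6 not called were Gbp2, Herc6, Ifi204, Ifi35, Ifit1 and Sp100. The fitted log2 fold changes ran from 0.73 for Sp100 to 5.57 for Ifi27l2a. Their median was 2.93, and the median of all genes was 0.08. Taken from log2 CPM ratios instead, the member medians in the 4 pairings of libraries ran from 2.97 to 3.09 (SD 0.0566). The pairings reuse the same 4 libraries and are not independent. The log2 fold change of Irf7 was 4.63 (SE 0.41, adjusted p = 0.00298, edgeR) and that of Bst2 4.22 (SE 0.82, adjusted p = 0.0231, edgeR). These libraries are other samples than the total RNA libraries, but the set was chosen with their values known. The count fell to 0, as for all genes, without control granule replicate 1 or 2 (34 and 33 members at an unadjusted p under 0.05). It was 7 without knockout granule replicate 1 (0.196% of all genes) and 11 without knockout granule replicate 2 (0.418% of all genes).

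**Figure D3:**
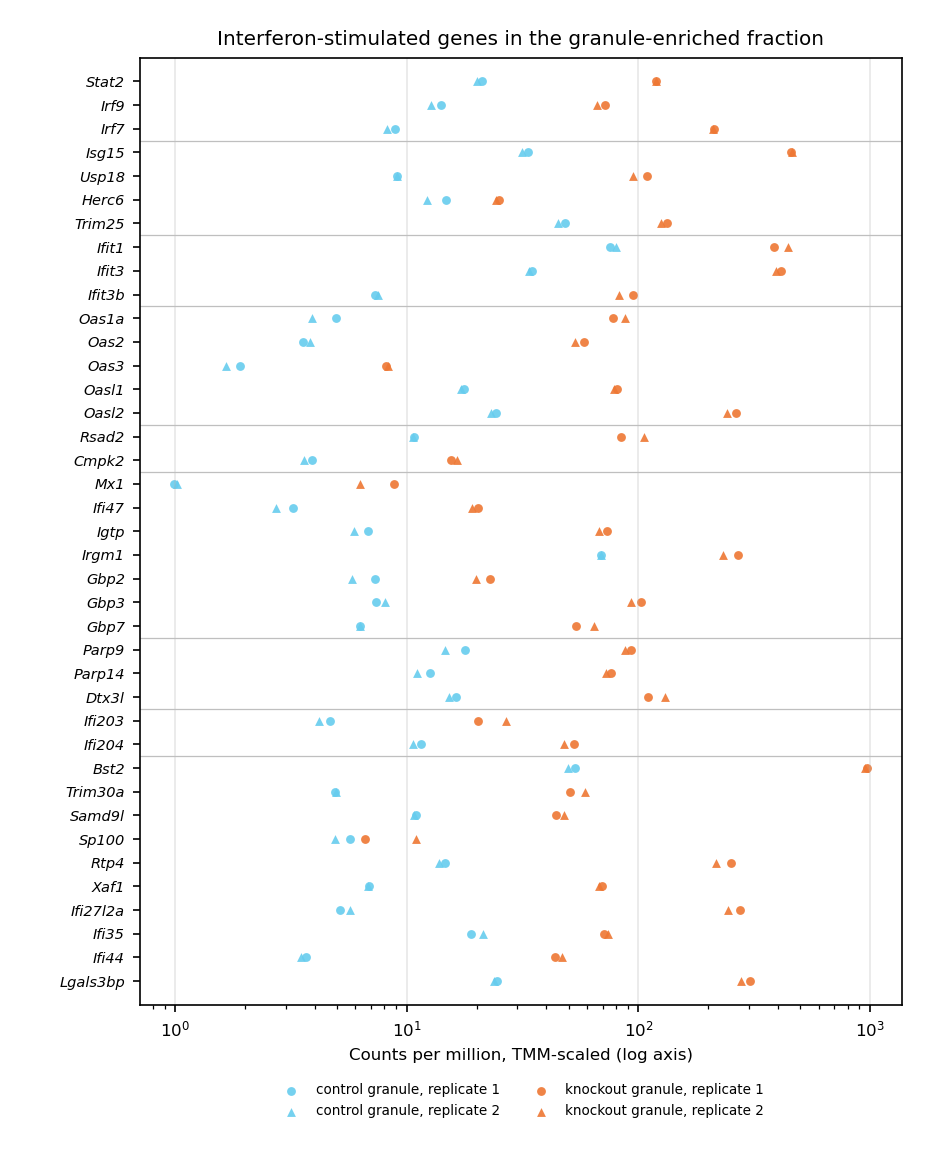
Level of each of the 39 genes in the 4 granule-enriched libraries, in TMM-scaled CPM on a log axis, with circles for replicate 1 and triangles for replicate 2; control is light blue and knockout orange. Replicates lie within 1.3-fold of each other for 39 genes in control and 36 in knockout cells, farthest apart for Sp100 (1.65-fold in knockout cells), and for all 39 genes both orange points lie to the right of both blue points, closest for Sp100.

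Relative to total RNA, the members were scarce in the granule fraction of control cells. Both control granule libraries lay below both control total libraries for 38 genes (37.3% of all tested genes), with Herc6 as the exception, and 31 of the 39 fell, against 4.17% of all genes called lower. The 8 not called were Gbp7, Herc6, Ifi203, Ifi204, Ifi35, Ifit1, Samd9l and Sp100. The mean granule level was between 3.40% (Usp18) and 65.7% (Samd9l) of the mean total level, with a median of 15.7%. The median log2 fold change was -2.67, with -0.06 over all genes. The count was 0 without control granule replicate 1 or 2 or control total replicate 2 (31, 32 and 32 at an unadjusted p under 0.05), 14 without control total replicate 1 (0.353% of all genes), and 17 and 18 without knockout granule replicates 1 and 2 (1.05% and 1.14% of all genes).

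In knockout cells the granule level was between 5.90% (Gbp2) and 291% (Ifi27l2a) of the total level, with a median of 32.2%. Both knockout granule libraries lay below both knockout total libraries for 32 genes (26.5% of all tested genes), and 26 fell, against 8.47% of all genes called lower. The median log2 fold change was -1.63, with 0.04 over all genes. Bst2 (0.12, adjusted p = 0.922, edgeR) and Ifi27l2a (1.54, adjusted p = 0.0575, edgeR) had positive values and were not called. The count was 2 without either knockout granule replicate (0.483% and 0.247% of all genes without replicates 1 and 2), and 0, as for all genes, when only the 4 knockout libraries were fitted (30 at an unadjusted p under 0.05).

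The granule percentage was higher in knockout than in control cells for 30 of the 39 genes, a count whose share over all genes is not given here. The 9 others were Herc6, Ifit1, Oas3, Gbp2, Parp14, Ifi203, Ifi204, Samd9l and Sp100. The knockout percentages rest on the mean of 2 total libraries that differed. With knockout total replicate 1 alone as the denominator the count was 27, and with replicate 2 alone it was 36, without Herc6, Gbp2 and Ifi204. The percentage of Ifi27l2a was then 596% or 193%, and that of Ifit1 12.1% or 97.5%. In the test of the difference itself, the genotype term in the granule to total ratio, 1 member passed, Ifi27l2a, with a log2 difference of 5.10 (SE 0.69, adjusted p = 0.0394, edgeR), while 0.517% of all genes were called in either direction. Usp18 had a difference of 2.85 (SE 0.48, adjusted p = 0.0567), Irf7 of 2.68 (SE 0.50, adjusted p = 0.0688) and Oas1a of 3.39 (SE 0.66, adjusted p = 0.0715). At the other end stood Ifi204 with -1.86 (SE 0.94, adjusted p = 0.245) and Gbp2 with -1.59 (SE 0.68, adjusted p = 0.191). The fitted median over the members was 0.67, with 0.09 over all genes. Member medians of log2 CPM ratios in the 16 combinations of libraries, which reuse the same 8, ran from 0.059 to 1.41 (SD 0.455). The number called was 22 without knockout total replicate 1 (18.6% of all genes) and also 22 without knockout total replicate 2 (46.4% of all genes). It was 0 without any 1 of the other 6 libraries (8 to 14 at an unadjusted p under 0.05), fits in which no gene of the whole table was called.

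**Figure D4:**
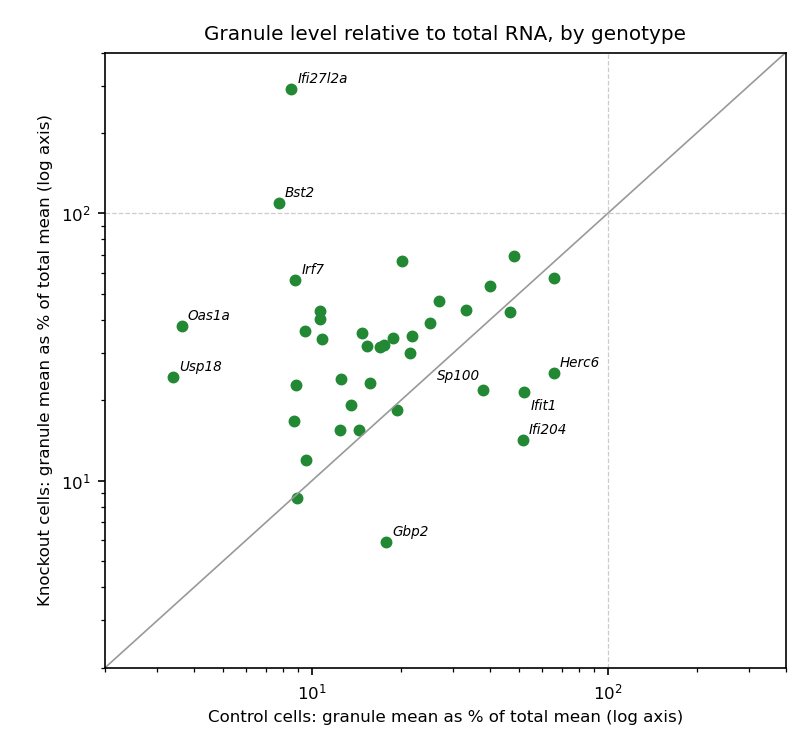
Mean granule level as a percentage of mean total level in knockout cells against the same in control cells, 1 point per gene, on log axes; the diagonal marks equal percentages and the dashed lines 100%. Of the 39 points, 30 lie above the diagonal, and Ifi27l2a (8.50% in control, 291% in knockout) is farthest from it.

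The other genes of the pathway were read from a list of 37 ligands, receptors, kinases, transcription factors, adaptors and inhibitors, of which 36 were in the table and 31 were tested. None was called by edgeR between genotypes, in total RNA (0.412% of all genes called) or in the granule fraction (9.45%). Their median log2 fold changes were 0.20 and 0.42. Between granule and total RNA, 1 was called higher and 4 lower in control cells (5.89% and 4.17% of all genes). In knockout cells 7 were called lower (8.47% of all genes). Ifnb1, a type I interferon that fibroblasts make, stood at 0.485 and 0.604 CPM in control and 0.647 and 1.63 CPM in knockout total RNA. Its knockout level was above both controls by little in replicate 1 (log2 fold change 1.06, SE 0.53, adjusted p = 0.250, edgeR). Of the ligands 3 were tested, Ifnb1, Ifna4 and Ifng. Ifna4 stood at 0.191 and 0.432 CPM in control and 0.467 and 0.478 CPM in knockout total RNA. Ifng was lower in both knockout libraries, with 0.177 and 0.140 against 0.0360 and 0.0831 CPM. Ifna5 and Ifnl2 were at 0 counts in every library. The receptor subunit Ifnar1 stood at 88.4 and 86.6 CPM in control and 137 and 112 CPM in knockout total RNA, and Ifnar2 at 43.8 and 44.2 against 78.9 and 66.2 CPM. Both subunits were higher in both knockout libraries by less than 2-fold and were not called.

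Of the kinases, Jak1 stood at 91.6 and 123.7 CPM in control and 197 and 141 CPM in knockout total RNA, and Tyk2 at 44.8 and 34.4 against 14.4 and 35.7 CPM. Irf1 stood at 107 and 82.3 CPM in control and 78.4 and 143 CPM in knockout total RNA, Irf3 at 50.7 and 39.4 against 17.0 and 52.4 CPM, and the feedback inhibitor Socs1 at 14.1 and 11.5 against 2.38 and 18.8 CPM. In these 3 genes knockout replicate 1 was the lowest and replicate 2 the highest of the 4 libraries, as in Bst2, Ifi35 and Ifi27l2a. This order held for 9 of the 31 tested pathway genes, and its share over all genes is not given here. In 12 others both knockout total libraries lay above both controls, which held for 24.4% of all tested genes. Of these 12, replicate 1 was the higher in 10 and replicate 2 in 2.

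In gene structure every member lay within the range of other tested coding genes, which is wide. Transcript length had a median of 2682 bases (463 to 7417), against 3028.5 over 15380 tested protein-coding genes, and GC content a median of 47.5% against 50.5%. The letters GGAC, the core of the sequence most often methylated, occurred at a median of 3.79 per kb against 4.19 per kb. The longest internal exon went the other way. Its median was 281 bases over the 34 members that have one, with a highest value of 2282. Over 13995 tested protein-coding genes the median was 218 bases. These differences were not tested. Several members are neighbours. Chromosome 11 held 7 of them and chromosomes 5 and 16 held 5 each, with all 5 oligoadenylate synthetase genes on chromosome 5 and the 3 Ifit genes within one cluster on chromosome 19.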

How the data were processed

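The authors deposited 1 table of raw counts per Ensembl gene identifier with a column for each of the 8 libraries, not pooled. Per the submitters' processing notes, STAR, DESeq2 and the build GRCm38 (mm10) were used, without their roles; the counting program, strand setting and annotation release are not given in the sources used here. Columns were matched to samples by genotype, fraction and replicate number. Identifiers were matched to GENCODE M21 (GRCm38), which paired 37607 of 39017 with a symbol, and promoters were taken from RefSeq (GRCm38.p6).

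The deposited counts were fitted with edgeR 4.0.16 under R 4.3.3 (TMM scaling, its expression filter over the 4 groups, robust quasi-likelihood F-test, a mean for each group over all 8 libraries, 4 residual degrees of freedom). The 5 contrasts were taken, and p-values were adjusted by Benjamini-Hochberg over 18952 genes, with genes called at an adjusted p under 0.05. Standard errors came from the F statistic. Per-library CPM are counts over the TMM-scaled library size. The fit was tested on simulated counts. The design calls the replicates biological, and it is not stated whether same-numbered samples share an embryo or culture.

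The members, the role groups, the pathway list and the markers were chosen with earlier results of these data known. Values of every library were given for the most abundant member and the one with the widest difference between knockout total replicates in each role group, for Usp18, Isg15, Ifi27l2a, Ifit3 and Ifit3b, and for members whose knockout total libraries lay on opposite sides of the control mean. Pathway genes were named from a set list, with the other tested ligands and the ligands at 0 counts added. The result for 1 listed pathway gene is not reported here. Alternatives were median-of-ratios scaling, library size alone, no filter beyond 1 count, a mean of at least 5 CPM, DESeq2 1.42.0, a replicate block, only the groups compared, removal of each library's GC trend (lowess, span 0.3), and leaving out each library.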

Additional observations from a re-analysis of the deposited data

Results flagged for a closer look

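Ifi27l2a was the member whose genotype difference depended on the fraction by a test of that dependence. Its granule to total ratio differed between genotypes by a log2 value of 5.10 (SE 0.69, adjusted p = 0.0394, edgeR), with an adjusted p between 3.96e-17 and 0.317 over the alternatives. The fitted knockout to control difference was 0.48 (SE 0.46) in total RNA and 5.57 (SE 0.56) in the granule fraction. Total RNA held 64.1 and 63.4 CPM in control and 43.4 and 134 CPM in knockout cells, and the granule fraction held 5.16 and 5.68 against 274 and 243 CPM, so the knockout granule libraries exceeded every total RNA library. The transcript is 463 bases long with a GC content of 52.9%, and the part of length, GC content or the mitochondrial share of the knockout granule libraries in this value was not tested.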

How the results depend on the processing

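Main counts of members called were 11 (knockout against control, total RNA), 33 (the same, granule), 31 and 26 (granule against total, control and knockout) and 1 (genotype difference in the granule to total ratio). In total RNA the 11 (0.274% of all genes called higher) became 3 with library size alone (0.116%), 33 with no filter beyond 1 count (8.18%), 33 with DESeq2 (9.72%), 0 with only the groups compared (0%), 31 with the GC trend removed (2.69%) and 26 with the GC trend removed and a replicate block (1.25%). The genotype difference was called for 14 with no filter (11.5% of all genes), 2 above a mean of 5 CPM (0.448%), 9 with DESeq2 (14.5%), 13 with the GC trend removed (9.49%) and 7 with that and the block (4.06%), against 0.517% in the main result. With the GC trend removed and the block its median of 0.67 moved to 1.13. The granule against total count in knockout cells was 0, as for all genes, with only the groups compared. The granule knockout median of 2.93 moved to 3.02 with library size alone, 2.84 with no filter, 3.11 above a mean of 5 CPM, 3.01 with the GC trend removed and 3.02 with that and the block. The cause of these shifts was not tested. Library size alone moved the median of all genes in the genotype difference from 0.09 to 0.28 and in total RNA from 0.02 to -0.08; Irf9 then no longer separated, leaving 33 of the 34.

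Leaving out each library gave 0 to 36 members called in total RNA (median 1.72 to 2.52), 0 to 38 in the granule fraction (2.86 to 2.99), 0 to 38 and 2 to 34 for granule against total in control and knockout cells (-2.99 to -2.22 and -1.87 to -1.35), and 0 to 22 for the genotype difference (0.23 to 1.07). Where such a count was 0, no gene of the whole table was called. With knockout total replicate 1 or 2 left out, a larger share of all genes was called than in the main result. This held in each of the 5 contrasts, in the direction counted. The ranges of counts thus also reflect how many of all genes each fit called. Where an arm kept 1 library, it was assumed to vary like the other groups. Knockout against control in total RNA spanned zero for Ifi35 (-1.73 to 0.94), Bst2 (-1.60 to 1.23), Oas1a (-0.040 to 1.41) and Ifi27l2a (-0.45 to 1.07). Granule against total spanned zero in control cells for Herc6 (-1.10 to 0.22) and in knockout cells for Ifi35 (-1.41 to 1.25), Ifi203 (-2.03 to 0.11), Gbp7 (-1.25 to 0.48), Bst2 (-0.71 to 2.11) and Samd9l (-1.55 to 0.27).

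Deviations of same-numbered control and knockout total libraries correlated at -0.60, and the other 5 pairs of groups at -0.23 to 0.19. The replicate ratios of the members also varied with GC content, in opposite directions in control and knockout total RNA (rho 0.66 and -0.74). The correlations therefore cannot decide whether same-numbered samples were paired. With a replicate block, 0 members were called in total RNA (33 at an unadjusted p under 0.05, edgeR) and 0 for the genotype difference (12 unadjusted). In both contrasts 0 of all genes were called. Ifi35 turned to -0.14 in total RNA. A crossed block, added after the data were seen, called 14, 33, 31, 26 and 1 members, in the order of the main counts above. The shares of all genes called in the same directions were 0.327%, 5.12%, 4.24%, 7.53% and 0.375%. It gave -0.091 for Ifi35 in total RNA. Depth did not limit the members: every one was above the level of 3 counts in every library.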
